A study of Mus musculus with 6 samples.

Results

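Mature oligodendrocyte and myelin genes were examined in mouse cerebellum as a list of 32 named genes. The members were chosen by name, with earlier results of these data known, and were matched to probes by the annotation of the array. The list covers the proteins of the myelin sheath and the enzymes that make its lipids or supply acetate for them. It also covers transcription factors that switch myelination on, and other genes of the finished oligodendrocyte. It had 55 of the 45281 probes on the array, and 29 of the 32 genes had a probe that was above background (a detection p-value lower than 0.05) on 3 or more arrays, against 10764 such genes in all. These 29 genes had 45 tested probes, and each gene is represented by its brightest tested probe unless a probe is named. The other 3 genes were not above background on any array: Myrf, the transcription factor that drives the myelin genes, Ermn, a cytoskeletal protein of the myelinating cell, and Gpr37, a receptor of maturing oligodendrocytes.

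Sp4 is a zinc-finger transcription factor that binds GC-rich promoter elements. The study measured cerebella of male mice at postnatal day 21, of a Black Swiss X CD1 background, in 3 animals labelled WT (wild type) and 3 labelled Sp4neo-/- (hypomorph), which the series describes as pairs of littermates. All groups shared strain, sex, age and tissue. A hypomorphic allele lowers a gene's output without necessarily abolishing it, and it is present in every cell of the animal, so it is not limited to oligodendrocytes. Biotin-labelled RNA from each cerebellum was read on 1 Illumina bead array, and the labels do not mention pooling of animals. Values are log2 intensities after background correction and quantile normalization, and differences are hypomorph minus wild type. Between 18656 and 20135 probes were above background on an array, and the number of arrays, 3 per group, limits the precision of every value. The targeted gene was lower on every hypomorph array: Sp4 (probe ILMN_1259753) stood at 7.82, 6.86 and 7.35 on wild-type arrays 1 to 3 and at 5.99, 5.80 and 6.32 on hypomorph arrays 1 to 3, without passing limma's test after Benjamini-Hochberg adjustment (adjusted p = 0.355).

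Oligodendrocytes wrap axons in a compacted membrane rich in galactolipids and cholesterol and held together by a small set of abundant proteins. In the cerebellum this takes place in the white matter tracts and around the deep nuclei, in a wave that runs through the first postnatal weeks, so that the third week falls in active myelination. Precursor cells pass through a committed stage, then switch on the sheath proteins and lipid enzymes nearly together, and later genes of iron supply, ion transport and stress protection. In whole tissue, fewer cells of a type and less RNA per cell cannot be told apart.

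Most of the myelin genes were high or low together from animal to animal, within each genotype. Wild type 1 had the highest value of all 6 arrays for 23 of the 29 genes and stood a median of 0.42 above the genes' own means. Wild type 3 and hypomorph 1 lay above as well, by medians of 0.20 and 0.24, and the 3 arrays exceeded the gene's own mean in 28, 27 and 25 genes. Wild type 2, hypomorph 2 and hypomorph 3 lay below, by medians of -0.21, -0.35 and -0.24. The 2 genotypes therefore overlapped: a high and a low animal were found in each.

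Set against each other, wild type 1 exceeded wild type 2 in 28 of 29 genes, with a median difference of 0.70, although both carry the same genotype. Hypomorph 1 exceeded hypomorph 2 in 28 of 29, with a median of 0.55. Across genotypes the result depended on which animals were set side by side. Hypomorph 3 lay below wild type 1 in 29 of 29 genes (median -0.64), hypomorph 1 lay below wild type 3 in 14 and above it in 15 (median 0.02), and hypomorph 1 lay above wild type 2 in 25 (median 0.46). Over all tested genes, the medians of the array pairs lay between -0.06 and 0.05.

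**Figure D1:**
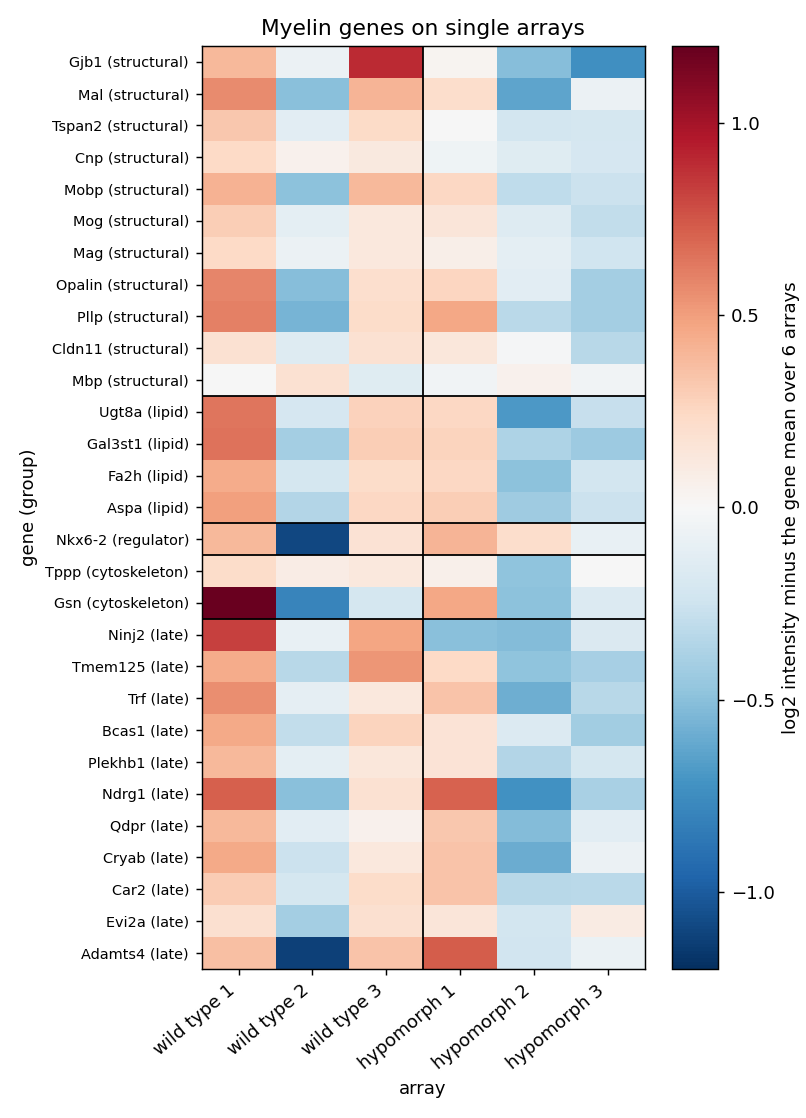
Each row is 1 of the 29 tested myelin genes, grouped by role, and each column is 1 array. Colour gives the log2 intensity minus the gene's mean over the 6 arrays, red above and blue below; the columns of wild type 1, wild type 3 and hypomorph 1 are mostly red, and those of wild type 2, hypomorph 2 and hypomorph 3 mostly blue.

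As a list the genes varied more than all tested genes did by their medians, and most varied in step. The SD between animals of a genotype, pooled over both groups, had a median of 0.40 for the myelin genes and 0.21 for all tested genes. For the structural genes alone the median was 0.22, close to that of all tested genes. It was 0.43 for lipid, 0.35 for late and 0.51 for cytoskeletal genes, and 0.59 for Nkx6-2, the 1 regulator. The correlation between pairs of myelin genes over the 6 arrays had a median r of 0.80 (406 pairs), and it was 0.85 when each array was taken as its deviation from its genotype's mean, so the shared pattern lay within genotypes. The same measures over all pairs of tested genes were 0.01 and 0.01. All pairs share the same 6 libraries and their normalization, so these correlations describe the arrays and were not tested. Aspa, Fa2h, Plekhb1 and Gal3st1 followed the rest of the list most closely, with r between 0.978 and 0.995 against the median of the other members. Aspa is dim and was above background only on wild type 1, wild type 3 and hypomorph 1, where the list was high. Its r is therefore not independent of the detection rule. Nkx6-2 (0.52), Ninj2 (0.64) and the brightest Mbp probe (-0.50) followed the rest of the list least.

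Between the genotypes, 26 of the 29 genes had lower values in the hypomorph, where 51.9% of all tested genes did, and the median difference was -0.27 against -0.01 for all tested genes. With p-values from limma adjusted by the Benjamini-Hochberg method across the 19515 tested probes, none of the 29 passed (percent called 0%), and the lowest adjusted p among them was 0.759. At an unadjusted p under 0.05 limma called 5.31% of all probes, or 1036. The members called in this way were 2, Gjb1 and Ninj2, both lower, beside 3.00% of all tested genes called lower and 2.23% called higher. The groups did not overlap for 3 genes, Cnp, Tppp and Ninj2, all lower in the hypomorph, beside 5.55% of all tested genes lower and 5.50% higher without overlap. Single animals moved the median of the list by over 1.5 times: it was -0.11 without wild type 1, -0.14 without hypomorph 2, -0.48 without wild type 2 and -0.43 without hypomorph 1. Members were listed with earlier results of these data known, so the count is a description and no test of the list was made. The difference of 25 of the 29 genes moved by over 1.5 times when 1 array was left out, and the other 4 were Cnp, Gjb1, Tspan2 and Ninj2, picked out here by that measure.

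**Figure D2:**
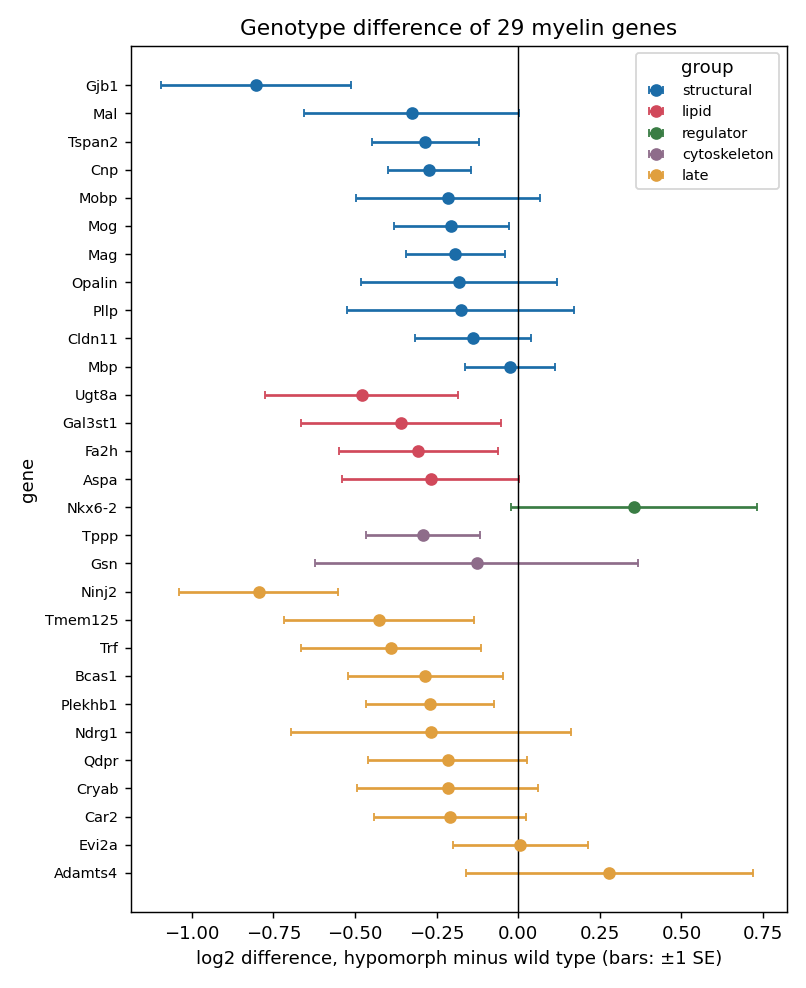
Points give the log2 difference (hypomorph minus wild type) of the 29 tested myelin genes on the horizontal axis, with bars of 1 SE from limma (3 arrays per group) and colours for the 5 groups of genes. Gjb1 and Ninj2 lie lowest at -0.80 and -0.79, and Nkx6-2 lies highest at 0.35.

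The structural genes encode proteins of the sheath and its membrane. All 11 had negative differences, from -0.80 to -0.02, with a median of -0.20, and 1 of them (Cnp) did not overlap between the groups. Cnp, a phosphodiesterase of the cytoplasmic channels of myelin, measured 13.64, 13.46 and 13.52 in wild type 1 to 3 and 13.35, 13.26 and 13.20 in hypomorph 1 to 3. Every hypomorph animal lay below every wild-type animal. The means were 13.54 ± 0.09 (SD, n = 3) and 13.27 ± 0.07, a difference of -0.27 (SE 0.13) or 1.21-fold, which did not pass (limma, unadjusted p = 0.0697, adjusted p = 0.969). A dimmer probe of Cnp differed by -0.16 (SE 0.15), and on it hypomorph 1 at 11.25 lay above wild type 2 and 3 at 11.14 and 11.21.

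Gjb1 encodes connexin 32, the channel protein of gap junctions in myelinating cells, and had the most negative difference. Its values were 6.70, 6.24 and 7.21 in wild type and 6.35, 5.80 and 5.58 in the hypomorph, the last of these not above background. Hypomorph 1 lay above wild type 2, so the groups overlapped. The difference of -0.80 (SE 0.29), or 1.74-fold, did not pass (adjusted p = 0.879), and it was -0.32 with the authors' processed values and -1.19 with array weights.

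Mog, an immunoglobulin-domain protein of the outermost myelin surface, measured 12.87, 12.46 and 12.70 in wild type and 12.72, 12.42 and 12.28 in the hypomorph, a difference of -0.20 (SE 0.18). Mag, the adhesion protein of the inner membrane facing the axon, measured 14.17, 13.86 and 14.06 against 14.00, 13.81 and 13.69, a difference of -0.19 (SE 0.15). In both genes wild type 1 was highest and hypomorph 3 lowest, and hypomorph 1 lay above wild type 2. Tspan2, a tetraspanin of the sheath, differed by -0.28 (SE 0.16), Mal, a raft-associated proteolipid, by -0.33 (SE 0.33), and Cldn11, the claudin of the tight junctions between myelin layers, by -0.14 (SE 0.18). Pllp, a tetraspan proteolipid, and Opalin, a sialylated glycoprotein restricted to oligodendrocytes, differed by -0.18 each (SE 0.35 and 0.30). The 2 tested probes of Mal disagreed in sign, the dimmer one differing by 0.11 (SE 0.31).

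**Figure D3:**
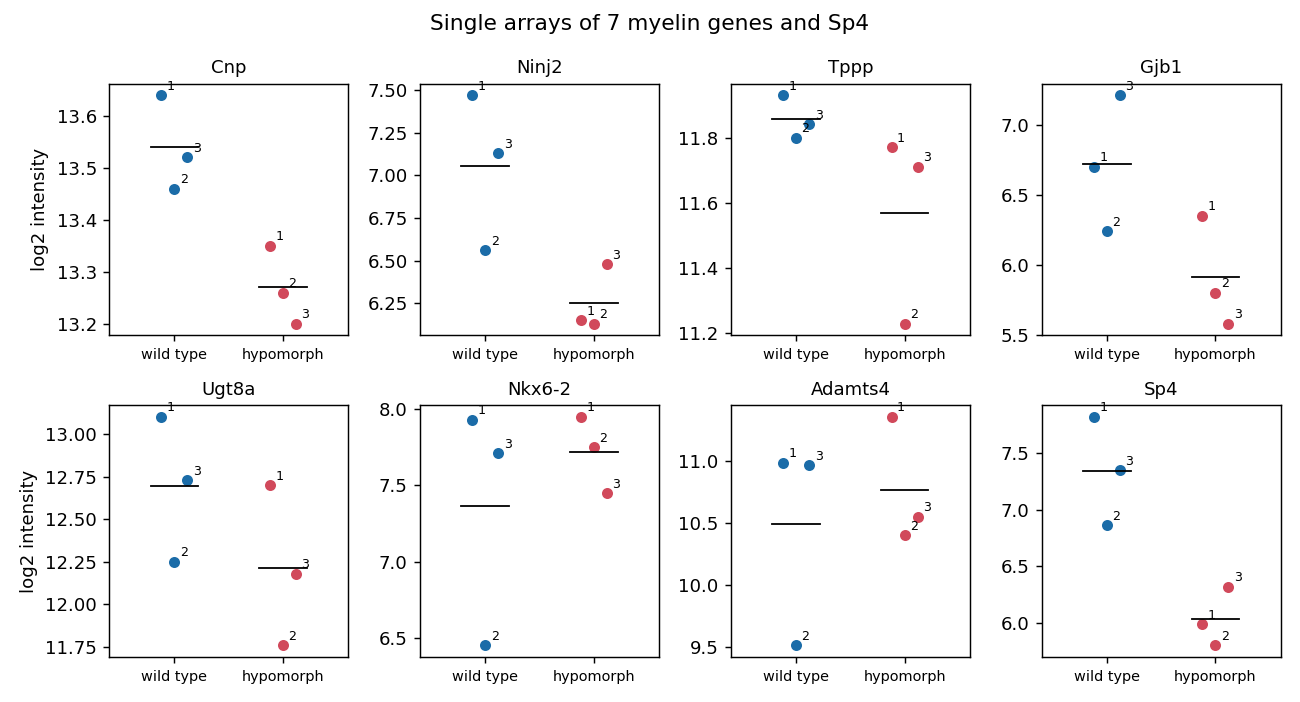
Each panel shows the log2 intensity of 1 gene on the 3 wild-type (blue) and 3 hypomorph (red) arrays, with the array number beside each point and a line at the group mean; the vertical axes differ in range and do not start at 0. Cnp, Ninj2, Tppp and Sp4 show no overlap between the groups, while in Gjb1, Ugt8a, Nkx6-2 and Adamts4 they overlap.

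Mbp and Mobp, the basic proteins that hold the cytoplasmic faces of myelin together, were read by 5 tested probes each. The brightest Mbp probe, ILMN_2737200, measured 15.39, 15.57 and 15.25 in wild type and 15.35, 15.44 and 15.35 in the hypomorph, a difference of -0.02 (SE 0.14). It was highest on wild type 2, where most other members were low. Its deposited intensity ran from 39456 to 46533 and ranked between 1 and 32 among the 45281 probes of an array, so it lay at the top of the measured range. The probe ILMN_3081854 ran with the rest of the list, at 13.99, 12.96 and 13.49 in wild type and 13.87, 13.46 and 13.05 in the hypomorph, with a spread over the arrays of 1.03 against 0.32 for the brightest. Of the other 3 Mbp probes, ILMN_1227299 and ILMN_2639865 followed the list (r = 0.78 and 0.91 with the median of the other genes over 6 arrays), and ILMN_3011353 did not (r = -0.25), varying by only 0.09. The genotype difference was negative on all 5, from -0.21 to -0.02. Whether the top of the signal range held the brightest probe level was not tested.

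The Mobp probes were more alike. The brightest, ILMN_2547305, measured 13.53, 12.62 and 13.50 in wild type and 13.36, 12.81 and 12.85 in the hypomorph, so wild type 2 was the lowest array of all and the groups overlapped. All 5 probes had negative differences, from -0.41 (SE 0.22) to -0.15 (SE 0.18), and the r of each with the median of the other genes lay between 0.66 and 0.93.

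**Figure D4:**
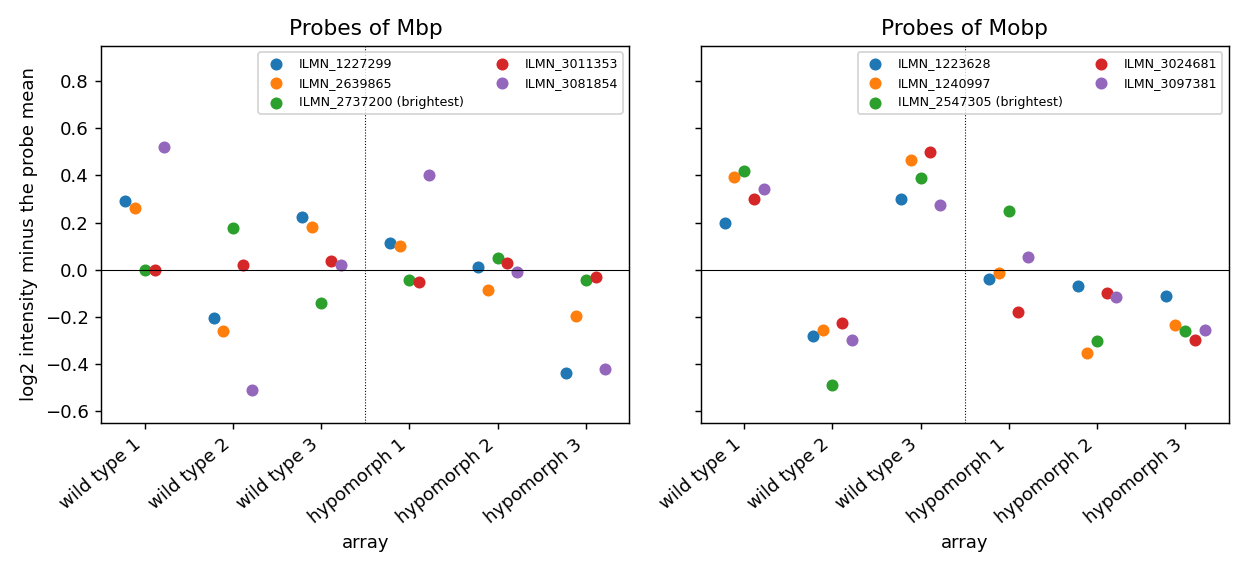
Log2 intensity minus the probe's mean over the 6 arrays is plotted for the 5 tested probes of Mbp (left) and of Mobp (right), by array. Among the Mbp probes the brightest is highest on wild type 2, where 3 others are low; all Mobp probes are low on wild type 2.

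Among the lipid genes, Ugt8a, Gal3st1 and Fa2h act in making the galactolipids of myelin, and Aspa supplies acetate for lipid synthesis. All 4 had negative differences, from -0.48 to -0.27, with a median of -0.33, and the groups overlapped in each. Ugt8a, the transferase that makes galactosylceramide, measured 13.10, 12.25 and 12.73 in wild type and 12.70, 11.76 and 12.18 in the hypomorph. Its difference of -0.48 (SE 0.30), or 1.39-fold, did not pass (adjusted p = 0.999). Hypomorph 1 stood near wild type 3, and wild type 2 near hypomorph 3.

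Gal3st1, the sulfotransferase that turns galactosylceramide into sulfatide, measured 11.42, 10.36 and 11.07 in wild type and 11.04, 10.40 and 10.34 in the hypomorph, with a difference of -0.36 (SE 0.31). Fa2h, which hydroxylates the fatty acids of these lipids, measured 12.80, 12.15 and 12.58 against 12.61, 11.87 and 12.14, with a difference of -0.31 (SE 0.24). In both, the 3 high arrays were wild type 1, wild type 3 and hypomorph 1. Aspa, which splits N-acetylaspartate and so frees acetate for lipid synthesis, measured 6.27, 5.43 and 6.03 against 6.07, 5.35 and 5.52, and differed by -0.27 (SE 0.27). It was above background only on those 3 high arrays, 2 of them wild type, which is the least that the detection rule accepts.

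The promoters of some of these genes carry the GC box, the kind of element that Sp-family proteins bind. GGGCGG or its reverse complement was searched in the 250 bases before each listed transcript start (RefSeq, build GRCm38.p6). Of the 32 members 22 were in the promoter table, with 33 windows, and 11 of these windows (33.3%) held the motif, against 32.7% of all 32851 windows. The 4 windows below, 5′ to 3′ on the gene's strand, show both kinds: Cnp and Ninj2 because the genotypes did not overlap in them, Ugt8a as the first galactolipid enzyme and Mobp as a sheath protein without the motif. Capitals mark the motif on either strand. The windows are chr11:100574689-100574938 on the plus strand for Cnp, chr6:120093130-120093379 on the plus strand for Ninj2, chr3:125938653-125938902 on the minus strand for Ugt8a and chr9:120149492-120149741 on the plus strand for Mobp.
Cnp: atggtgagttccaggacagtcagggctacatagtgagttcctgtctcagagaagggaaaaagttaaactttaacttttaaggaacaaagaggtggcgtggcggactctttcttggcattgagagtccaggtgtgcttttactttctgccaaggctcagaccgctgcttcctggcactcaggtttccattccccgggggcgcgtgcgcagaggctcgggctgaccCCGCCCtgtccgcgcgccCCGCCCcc
Ninj2: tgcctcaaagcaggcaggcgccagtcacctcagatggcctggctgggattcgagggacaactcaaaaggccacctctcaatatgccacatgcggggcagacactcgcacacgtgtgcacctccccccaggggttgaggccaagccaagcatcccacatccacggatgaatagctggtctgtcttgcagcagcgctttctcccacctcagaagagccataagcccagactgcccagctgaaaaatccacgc
Ugt8a: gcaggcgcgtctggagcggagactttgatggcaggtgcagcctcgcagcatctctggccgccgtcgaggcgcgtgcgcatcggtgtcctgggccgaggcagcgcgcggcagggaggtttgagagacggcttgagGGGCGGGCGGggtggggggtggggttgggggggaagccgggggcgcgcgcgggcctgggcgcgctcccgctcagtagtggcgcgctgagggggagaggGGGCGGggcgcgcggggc
Mobp: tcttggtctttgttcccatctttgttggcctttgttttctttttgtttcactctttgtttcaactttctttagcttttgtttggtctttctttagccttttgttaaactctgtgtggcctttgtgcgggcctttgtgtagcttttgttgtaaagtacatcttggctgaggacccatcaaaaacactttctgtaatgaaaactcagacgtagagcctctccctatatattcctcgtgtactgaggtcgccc
Cnp held 2 copies, both on the reverse strand and starting 26 and 8 bases before the listed transcript start. Ugt8a held 3 on the forward strand, of which the first and second overlap by 2 bases and start 116 and 112 bases before its listed start, with the third at 18. The Ninj2 and Mobp windows held none. The annotated Cnp gene begins at 100574909 and the annotated Ugt8a gene, on the minus strand, at 125938682. Both Cnp copies and the third Ugt8a copy therefore lie within the annotated gene, before the start of a shorter transcript. By gene, 9 of the 22 members had a window with the motif, beside 9555 of all 27025 genes in the promoter table. Of the 3 genes whose groups did not overlap, Cnp and Tppp had such a window and Ninj2 had none. These 3 were picked by their values, and a link between the motif and the genotype difference was not tested. A match describes these letters and is not a binding site.

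The regulators were represented by Nkx6-2, a homeodomain factor of the maturing oligodendrocyte. Its brightest probe measured 7.93, 6.45 and 7.71 in wild type and 7.95, 7.75 and 7.45 in the hypomorph, a difference of 0.35 (SE 0.38). Wild type 2 stood far below the other arrays, which lay between 7.45 and 7.95, and without it the difference was -0.10. A dimmer probe, above background on 4 arrays, differed by -0.19 (SE 0.28).

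Among the cytoskeletal genes, Tppp, which bundles microtubules and supports the growing sheath, measured 11.93, 11.80 and 11.84 in wild type and 11.77, 11.23 and 11.71 in the hypomorph. No hypomorph animal reached the lowest wild-type value, but hypomorph 1 lay only just below it. The difference was -0.29 (SE 0.17, adjusted p = 0.999). On the dimmer probe of Tppp (-0.47, SE 0.32) the groups overlapped. Gsn, the actin-severing protein gelsolin, measured 8.99, 7.01 and 7.59 against 8.27, 7.31 and 7.64, with a difference of -0.13 (SE 0.495) and the widest spread over the arrays of any member, 1.98.

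Of the 11 tested genes of the late group 9 had negative differences, and the median was -0.27. Ninj2, a cell-surface adhesion molecule, had the smallest unadjusted p of the whole list (0.0130). It measured 7.47, 6.56 and 7.13 in wild type and 6.15, 6.13 and 6.48 in the hypomorph. Every hypomorph animal lay below every wild-type animal, hypomorph 3 only just below wild type 2. The means were 7.05 ± 0.46 (SD, n = 3) and 6.26 ± 0.20, a difference of -0.79 (SE 0.24) or 1.73-fold, which did not pass (limma, adjusted p = 0.759). Ninj2 was below its own mean on hypomorph 1, where 25 of the 29 members were above theirs. With the authors' processed values the difference was -0.36.

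Bcas1, a marker of oligodendrocytes that are starting to myelinate, measured 13.85, 13.10 and 13.66 in wild type and 13.56, 13.23 and 12.98 in the hypomorph, a difference of -0.28 (SE 0.24). Adamts4, a secreted metalloprotease, went the other way with 10.99, 9.51 and 10.97 against 11.36, 10.40 and 10.55, a difference of 0.28 (SE 0.44) that was -0.21 without wild type 2. Evi2a, a small transmembrane protein, differed by 0.01 (SE 0.21).

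Trf, the iron carrier transferrin, differed by -0.39 (SE 0.28), and the membrane protein Tmem125 by -0.43 (SE 0.29). Car2, a carbonic anhydrase, Qdpr, which recycles tetrahydrobiopterin, and Cryab, a small heat-shock protein, lay between -0.22 and -0.21. Plekhb1, a pleckstrin-domain protein, differed by -0.27 (SE 0.20). Ndrg1, a stress-responsive protein whose loss causes a demyelinating neuropathy in humans, differed by -0.27 (SE 0.43) on its brighter probe and by -0.29 (SE 0.41) on the dimmer. On the brighter, hypomorph 1 (11.08) stood level with wild type 1 (11.09), and hypomorph 2 was lowest at 9.64.

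The structural, lipid and late groups were each above their own means, by their medians, on wild type 1, wild type 3 and hypomorph 1 and below them on the other arrays, with different sizes and a different order among the low arrays. On wild type 1 the median deviation was 0.32 for structural, 0.57 for lipid and 0.44 for late genes. On hypomorph 2 it was -0.16, -0.46 and -0.49, and on hypomorph 3 it was -0.26, -0.27 and -0.21. The median range over the 6 arrays was 0.59 for structural, 1.01 for lipid and 1.02 for late genes, beside 0.58 for all tested genes. These are descriptions, and the difference between the groups of genes was not tested. Without wild type 1 the genotype medians were -0.11 for structural, -0.14 for lipid and -0.11 for late genes, and without wild type 2 they were -0.42, -0.58 and -0.40.

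Other genes of the oligodendrocyte lineage were read for comparison. Of 50 further genes of mature oligodendrocytes and axon-glia contact 40 were tested, 33 had negative differences (51.9% of all tested genes did), and the median was -0.15. In them 3 genes had an unadjusted p under 0.05, all lower (Cmtm5, Mcam and Gamt), beside 3.00% of all tested genes, and none passed after adjustment. Cmtm5, a membrane protein enriched in oligodendrocytes, measured 12.99, 12.93 and 12.93 in wild type and 12.71, 12.50 and 12.51 in the hypomorph, a difference of -0.38 (SE 0.13, adjusted p = 0.831). The groups did not overlap, and wild type 2 was not low here. Gamt, which makes creatine, differed by -0.42 (SE 0.18) and Mcam, an adhesion molecule also known from vessels, by -0.41 (SE 0.15). The dimmer Mcam probes, ILMN_1229960 and ILMN_2614531, differed by -0.20 (SE 0.17) and -0.21 (SE 0.15), and on both the groups overlapped. The lineage factors Sox10 and Olig1 differed by -0.23 (SE 0.19) and 0.01 (SE 0.15).

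Of 17 genes of precursors and newly committed cells 11 were tested and 8 had negative differences (51.9% of all tested genes did), with a median of -0.09. In them 2 genes had an unadjusted p under 0.05, Gpr17 and Matn4, both lower, beside the same 3.00%, and none passed after adjustment. Gpr17, a receptor of committed precursors that are about to mature, measured 11.16, 10.76 and 10.87 in wild type and 10.37, 10.56 and 10.14 in the hypomorph. The groups did not overlap, and the difference of -0.57 (SE 0.17) did not pass (adjusted p = 0.745). Matn4, an extracellular matrix protein, differed by -0.57 (SE 0.24) and Cspg5, a proteoglycan, by -0.41 (SE 0.21), while Pdgfra, the growth factor receptor that defines precursors, differed by -0.04 (SE 0.19). Cholesterol synthesis, which supplies the other main lipid of myelin, had 15 of 21 genes tested. Of these 13 had negative differences (51.9% of all tested genes did), with a median of -0.28. The median deviations of the list were 0.20, -0.05 and 0.20 on wild type 1 to 3 and 0.08, -0.27 and -0.23 on hypomorph 1 to 3. Cyp51 differed by -0.56 (SE 0.22, adjusted p = 0.900). In the list 1 gene was lower at an unadjusted p under 0.05, beside 3.00% of all tested genes. The groups did not overlap for 1 gene lower and 1 gene higher, beside 5.55% and 5.50% of all tested genes.

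**Figure D5:**
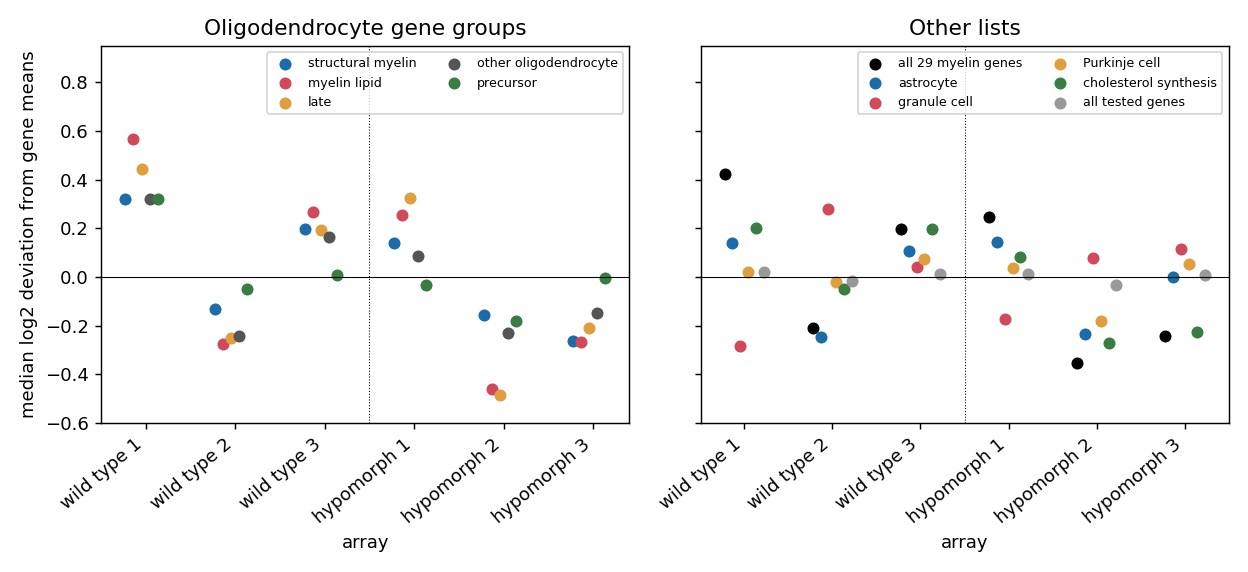
For each array the points give the median over a list of genes of the log2 intensity minus the gene's mean over the 6 arrays, on the left for oligodendrocyte groups and on the right for other lists. The oligodendrocyte groups are high on wild type 1 and low on hypomorph 2, granule cell genes are lowest on wild type 1 and highest on wild type 2, and all tested genes stay near 0.

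Markers of other cells also differed between the arrays. The 13 tested granule cell genes (of 15, with Cbln3 and Pax6 not reaching the detection rule) had median deviations of -0.28 on wild type 1, 0.28 on wild type 2 and 0.04 on wild type 3, and of -0.17, 0.08 and 0.12 on hypomorph 1 to 3, so they were low where the myelin genes were highest. Their summed intensity was 89050 to 131400 in wild type and 96330 to 123200 in the hypomorph. Of the astrocyte genes all 18 were tested, and 14 had negative differences (51.9% of all tested genes did), with a median of -0.06. As for myelin, their median deviations were above 0 on wild type 1 (0.14), wild type 3 (0.11) and hypomorph 1 (0.14). They were low on wild type 2 (-0.25) and hypomorph 2 (-0.24), also as for myelin, but near 0 on hypomorph 3. Their summed intensity was 155500 to 188400 in wild type and 146100 to 181400 in the hypomorph. Of 17 genes of deep nuclear and brainstem neurons 5 were tested: Slc17a6, Nefm, Hoxb3, Th and Tph2. Their median deviations were 0.06, -0.15 and 0.21 in wild type and -0.08, 0.18 and -0.23 in the hypomorph. These had the sign of the myelin medians on the wild-type arrays and hypomorph 3, and the opposite sign on hypomorph 1 and hypomorph 2. All 5 had negative genotype differences (51.9% of all tested genes did), with a median of -0.16. Chat, Dbh, Hoxa2, Hoxa3, Hoxb4, Nefl, Slc5a7, Slc6a2 and Slc6a5 did not reach the detection rule. The summed intensity of the tested genes was 4493 to 6150 in wild type and 4526 to 5287 in the hypomorph. Of 12 Schwann cell genes 5 were tested, and Egr2, Dhh, Cldn19, Ncmap and Mlip did not reach the rule. The tested Schwann cell genes had median deviations of 0.27, -0.49 and 0.08 in wild type and 0.09, -0.25 and 0.03 in the hypomorph. Their summed intensity was 1717 to 3429 in wild type and 1888 to 3067 in the hypomorph, with 68.4% of it from 1 gene. Pmp22 of this list is also among the further oligodendrocyte genes, so the list is not specific to Schwann cells. Of 9 genes of vessels and blood 7 were tested, and their median deviations were 0.33, -0.30 and 0.15 in wild type and -0.01, 0.07 and -0.05 in the hypomorph. Microglia (13 of 15 genes tested) and Purkinje cells (7 of 13) had median genotype differences of 0.01 and -0.13. The summed intensity of the myelin genes was 173400 to 223600 in wild type and 159700 to 201300 in the hypomorph. The part of these other cells, or of the piece of tissue taken, in the myelin values was not tested.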

How the data were processed

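RNA of 3 wild-type and 3 hypomorph cerebella was read on Illumina bead arrays, and per the submitters' processing notes the data passed through BeadStudio, a program for Illumina scans whose version and settings are not stated there. The authors deposited non-normalized intensity values, linear and with values below 0, with a detection p-value per probe and array, and a table of processed intensity values. The processed medians differed little between arrays (161.3 to 161.5), and no header states how they were normalized. Values were corrected and normalized with neqc of limma 3.58.1 in R 4.3.3 (background from the detection p-values, offset of 16, quantile normalization, log2). Because quantile normalization equalizes the arrays, a change shared by most RNAs cannot be seen, and the offset shrinks folds of dim probes. Probes above background (detection p-value lower than 0.05) on 3 or more arrays were tested with lmFit and eBayes for the genotype alone, with p-values adjusted by the Benjamini-Hochberg method over all tested probes with a threshold of 0.05; the procedure was tested on simulated data. P-values set the genotype difference against the spread between these animals, with variances moderated across all tested probes. The fit took the animals as independent, although the series describes pairs of littermates. Probes were named by the platform annotation (34885 probes with 1 symbol, 18 with several, 10378 with none), and all 32 member symbols were found in the gene table of GRCm38.p6. Promoter sequences are from RefSeq.

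The members and lists were chosen with earlier results of these data known. Per-array values are printed for the brightest member, the one with the smallest p and the one with the most positive difference of each group, for a fixed set of main myelin genes, and in the other lists at most the 3 genes with the smallest p and Sox10, Olig1, Olig2 and Pdgfra are named. The numbers in the labels were not taken as pairs: deviations of same-numbered arrays from their group means correlated with r of 0.44, 0.40 and 0.06. Summed intensities add 2 to the power of the normalized log2 value over the brightest probes. The alternatives varied the pairing, the background step, the scaling, the offset (50), the source of the values (the authors' own), the filter, the moderation, the weights of arrays, the arrays included (each left out once) and the probe of a gene.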

Additional observations from a re-analysis of the deposited data

How the results depend on the processing

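The count of probes past the adjusted threshold over the whole array was 0 (1036 at an unadjusted p under 0.05). It was 5 without background correction, 5 with an offset of 50, 8 with the authors' values, 3 with detection on all 6 arrays, 8 with a variance trend and 13 with array weights, between 0 and 2 with 1 array left out, and 0 with median scaling and with no filter; the cause was not tested. With the replicate block it was 2; each array correlated best with the array of its own number in the other genotype, a hint from the data and not from the design, and 4 members then had an unadjusted p under 0.05, all lower, where 5.15% of all tested genes were called lower (3.00% without the block). No member passed in any of the 15 alternatives for single genes, and the lowest adjusted p was 0.207 (Gjb1, array weights).

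The count of members with lower values stayed between 22 and 28 of 29 where 29 were tested, with 27 of 32 without the filter and 24 of 27 with detection on all 6 arrays. The list's median ran from -0.48 to -0.11 with 1 array left out and from -0.36 to -0.21 otherwise. With 1 array left out the medians ran from -0.42 to -0.11 for structural, -0.58 to -0.14 for lipid, -0.43 to -0.093 for late and -0.43 to 0.09 for cytoskeletal genes. With median scaling 66.7% of all tested genes had negative differences, against 51.9%, and the median of all genes was -0.08.

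The sign changed for 9 of the 29 members. With 1 array left out the ranges were -0.11 to 0.065 for Mbp, -0.51 to 0.085 for Pllp, -0.48 to 0.066 for Opalin, -0.10 to 0.64 for Nkx6-2, -0.55 to 0.43 for Gsn, -0.44 to 0.028 for Cryab, -0.19 to 0.12 for Evi2a, -0.69 to 0.032 for Ndrg1 and -0.21 to 0.53 for Adamts4. Members that kept their sign could still move far, from -0.26 to -0.0061 for Cldn11, -0.43 to -0.011 for Qdpr and -0.52 to -0.058 for Mobp. Array weights gave 0.053 for Mbp, -0.074 for Evi2a, -0.080 for Adamts4, -0.11 for Olig1 and -0.068 for Pou3f1, and median scaling -0.077 for Evi2a and -0.037 for Olig1; the cause was not tested. Among the other genes the ranges with 1 array left out were -0.12 to 0.083 for Olig1, -0.24 to 0.29 for Olig2, -0.20 to 0.077 for Pdgfra, -0.042 to 0.42 for Pou3f1, -0.26 to 0.084 for Cdh19 and -0.35 to 0.19 for Pmp22. The 3 arrays per group limit what could be called, and Aspa, Gjb1 and the dimmer Nkx6-2 probe lie near background. Ninj2 was above background on all 6 arrays but was dim too, with deposited intensities of 52.8, 55.6 and 73.3 on hypomorph 1 to 3.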
